A study of Oryza sativa Japonica Group with 29 samples.

Results

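In rice roots, 169 of 23699 tested loci carried less RNA after drought in wild type plants and more RNA after drought in plants over-expressing OsNMCP1. They were chosen from the measured values themselves. A locus entered when its mean log2(TPM + 1) was at least 0.5 higher in OE drought than in OE normal libraries and at least 0.5 lower in WT drought than in WT normal libraries. TPM is the number of transcripts of a locus per 1000000 transcripts, a level per length that has the same total in each library. A locus was tested if 2 or more libraries reached 1 TPM. Both thresholds were met by 172 loci in all, and 3 of them, which stood among 4 loci left out by the rule, were not kept. The opposite pattern, lower in OE drought and higher in WT drought, was met by 288 loci.

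The 11 libraries came from roots of 25-day-old seedlings of Oryza sativa Japonica Group at the stage of 4 leaves, raised in hydroponic culture at 28°C by day and 22°C at night. OE drought (3 libraries) and OE normal (2 libraries) are plants that over-express OsNMCP1, and WT drought (3 libraries) and WT normal (3 libraries) are wild type ZH11. Drought was a 3 h withdrawal of water before sampling, and normal plants kept their water. Neither the promoter of the transgene nor the number of transgenic lines is given in the sources used here. The series calls its replicates biological and does not say whether they came from separate cultures, so the spread between them may be technical in part.

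OsNMCP1 is a lamin-like protein of the plant nuclear periphery, where such proteins help to hold the shape of the nucleus and the arrangement of chromatin. Water withdrawal lowers the water potential around root cells, raises abscisic acid and shifts transcripts of metabolism, transport, cell walls and growth within hours. The loci described here are held together by how they moved in these libraries and not by a shared pathway, so their known roles are given one locus at a time. OsNMCP1 itself (LOC_Os01g56140) stood at 452, 424 and 347 TPM in OE drought libraries, 37.4, 28.1 and 46.4 TPM in WT drought libraries, 184 and 167 TPM in OE normal libraries, and 35.5, 37.6 and 36.3 TPM in WT normal libraries.

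Several facts of the whole series bear on every value below. The labels of all 6 drought libraries name genomic DNA as the molecule while their titles name RNA sequencing, so molecule label and drought cannot be told apart. The sample numbers of drought and normal libraries also form separate blocks, so anything that differed between the blocks cannot be told apart from drought. Implied depth was 7.0 to 7.14 gigabases in OE drought, 8.23 to 11.95 in WT drought, 5.79 to 7.34 in OE normal and 8.56 to 9.29 in WT normal. The median change of all tested loci was -0.56 in OE and -0.35 in WT on the log2 scale, so the threshold in OE lay 1.06 above the median locus and the threshold in WT only 0.15 below it. When libraries were rescaled by median ratios, the median locus changed by -0.02 in both genotypes, and 93 of the 169 loci still met both thresholds. The other 76 missed the WT threshold and none missed the OE threshold. Summed over 6 root markers (LSI1, LSI2, SHR1, NRT2.1, AMT1-2 and PIP2-5), the level was 129.8 to 276 TPM in OE drought, 607 to 747 in WT drought, 1736 to 1898 in OE normal and 1941 to 1982 in WT normal, and NRT2.1 reached at most 0.106 TPM in any library. LSI1 and LSI2 carried most of this sum. Of the 5 root markers tested, 4 were called lower in OE drought (51.3% of all tested loci) and 3 in WT drought (44.0%). With median-ratio scaling 3 were called lower in OE (31.1% of all tested loci) and 3 in WT (27.8%). PIP2-5, an aquaporin, was called higher in both, by 1.14 in OE (limma adjusted p = 0.0116) and 2.26 in WT (limma adjusted p = 0.000147). Summed over 3 shoot markers (CAB1R, CAB2R and RBCS), the level was 43.6 to 186 TPM in OE drought, 317 to 592 in WT drought, 328 to 330.3 in OE normal and 799 to 1115 in WT normal. The part of these shifts in the pattern of the 169 loci was not tested. In tissue of many cell types, fewer cells of a type and less RNA per cell cannot be told apart.

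**Figure D1:**
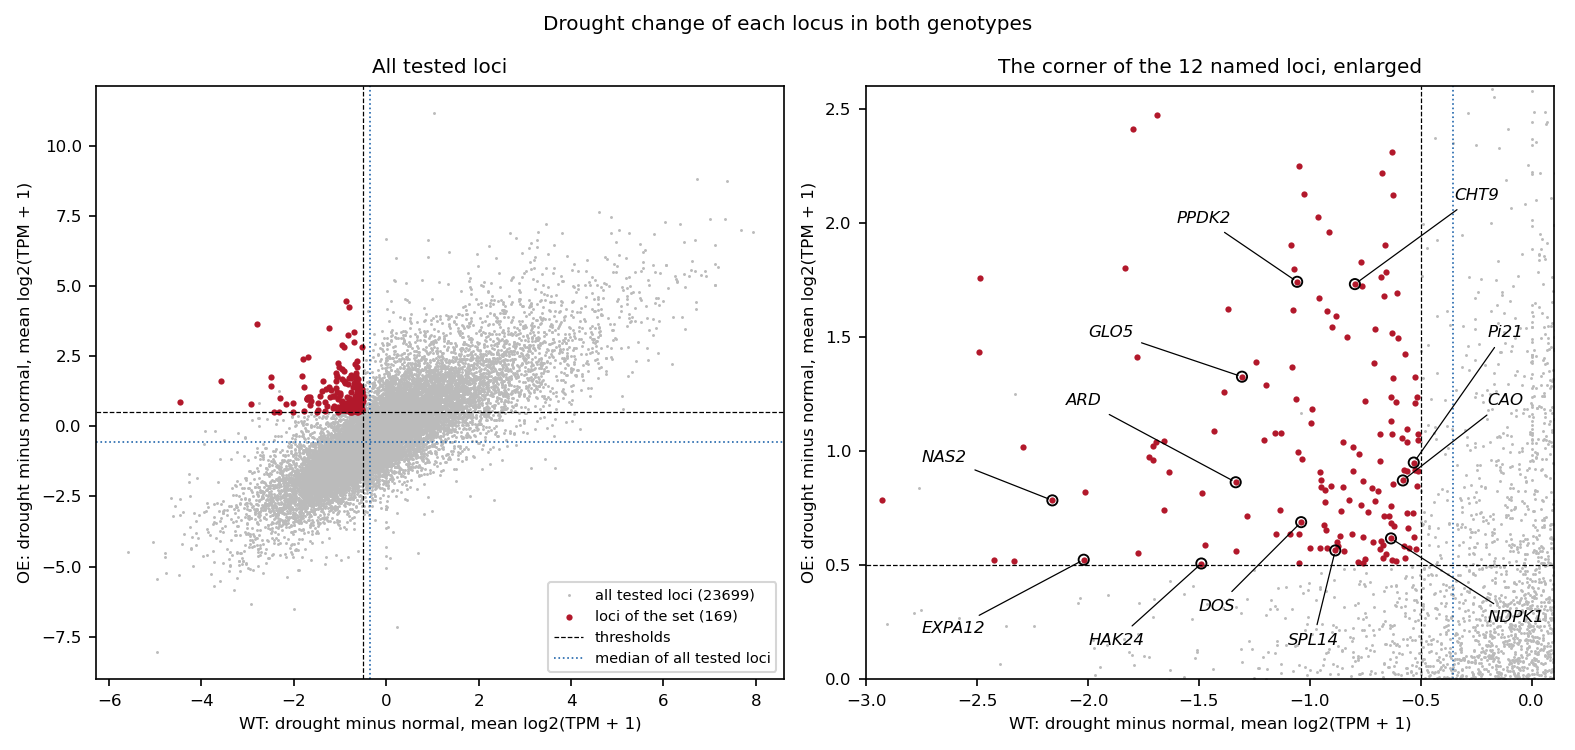
Each point is a locus, with its drought change in WT on the x axis and in OE on the y axis, as differences of mean log2(TPM + 1); the right panel enlarges the corner with the 12 loci that have an accepted gene name (circled). The 169 chosen loci (red) fill the upper left corner beyond the dashed thresholds of 0.5, and dotted lines show the medians of all 23699 tested loci, -0.56 in OE and -0.35 in WT.

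Of the 169 loci, 12 have a gene name that the reference table supports. They fall into enzymes of carbon, nucleotide and sulfur metabolism, proteins of metal and potassium handling, proteins of the cell wall and of defence, and regulators. Changes are differences of mean log2(TPM + 1) with the standard error (SE) of the fitted model. They describe the choice of the loci and are no test of it.

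PPDK2 (LOC_Os03g31750, chromosome 3, 18153143 to 18160127) encodes pyruvate orthophosphate dikinase, which interconverts pyruvate and phosphoenolpyruvate. It stood at 154, 95.6 and 154 TPM in OE drought libraries and 56.4, 41.7 and 29.5 TPM in WT drought libraries. In normal conditions it stood at 40.7 and 36.5 TPM in OE and 87.4, 85.1 and 87.7 TPM in WT. The groups did not overlap in any of the 4 pairings within a genotype or a condition, and the order of the genotypes turned round with drought. The drought change was 1.74 in OE (SE 0.27) and -1.06 in WT (SE 0.24). PPDK1 (LOC_Os05g33570), the other gene of this enzyme examined, was not in the set. Its drought change was -0.21 in OE (limma adjusted p = 0.333), with a value of 0.44 after median-ratio scaling, and -1.4 in WT (limma adjusted p = 7.38e-05).

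GLO5 (LOC_Os07g05820, chromosome 7, 2797691 to 2801364), named as a glycolate oxidase, belongs to a family of peroxisomal enzymes that oxidise glycolate to glyoxylate and release hydrogen peroxide. Its level was 37.1, 43.8 and 39.9 TPM in OE drought and 9.69, 12 and 15.1 TPM in WT drought. OE normal libraries stood at 15.5 and 15.4 TPM and WT normal libraries at 32.4, 26.8 and 35.4 TPM. As in PPDK2, no 2 groups compared overlapped, and watered OE roots held less than watered WT roots. The change was 1.33 in OE (SE 0.19) and -1.31 in WT (SE 0.17).

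ARD (LOC_Os10g28350, chromosome 10, 14751950 to 14754326) encodes acireductone dioxygenase, a metal-dependent enzyme of the cycle that recovers methionine from by-products of ethylene and nicotianamine synthesis. It stood at 65.7, 63.1 and 62.3 TPM in OE drought, the tightest of the named genes, and at 27.2, 22.4 and 12.9 TPM in WT drought. OE normal libraries held 34.5 and 34.7 TPM, and WT normal libraries 49.5, 55.7 and 50.3 TPM. The change was 0.86 in OE (SE 0.24) and -1.33 in WT (SE 0.22).

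NDPK1 (LOC_Os07g30970, chromosome 7, 18334872 to 18337487) encodes a nucleoside diphosphate kinase, which passes phosphate between nucleotides. It was the most abundant of the named genes, at 803, 1191 and 956 TPM in OE drought and 511, 619.9 and 526 TPM in WT drought. In normal conditions OE held 615 and 651 TPM and WT held 885, 814 and 866 TPM. Its changes were small and even, 0.62 in OE (SE 0.17) and -0.63 in WT (SE 0.16), with no overlap between drought and normal libraries in either genotype. With median-ratio scaling the WT change was -0.24, short of the threshold.

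CAO (LOC_Os10g41780, chromosome 10, 22482198 to 22486537) encodes chlorophyllide a oxygenase, which makes chlorophyll b. It stood at 21.3, 22.5 and 9.34 TPM in OE drought, 5.53, 5.07 and 8.57 TPM in WT drought, 8.65 and 8.56 TPM in OE normal, and 12.2, 9.67 and 8.02 TPM in WT normal. WT drought replicate 3 lay within the range of the WT normal libraries. The change was 0.87 in OE (SE 0.35) and -0.58 in WT (SE 0.31). With median-ratio scaling the WT change of CAO was -0.23, short of the threshold. Another listed locus overlaps CAO on the opposite strand. The strandedness of counting is not given in the sources used here, so reads of the 2 loci may be mixed.

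NAS2 (LOC_Os03g19420, chromosome 3, 10926469 to 10927950) encodes nicotianamine synthase, which makes the metal chelator nicotianamine, the precursor of the phytosiderophores with which grasses take up iron. It stood at 6.36, 1.95 and 3.39 TPM in OE drought and 0.321, 1.82 and 9.47 TPM in WT drought. OE normal libraries held 1.8 and 1.51 TPM, while WT normal libraries held 19.0, 9.82 and 15.1 TPM. The drought groups of the 2 genotypes overlapped, and every WT normal library lay above every library of the other groups. The change was 0.78 in OE (SE 0.71) and -2.16 in WT (SE 0.64). NAS1 (LOC_Os03g19427) lies beside it and is a near copy, so values of the pair are uncertain between copies, and its own OE change of -0.17 (limma adjusted p = 0.837) kept it out of the set. After median-ratio scaling the OE change of NAS1 was 0.25.

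HAK24 (LOC_Os06g15910, chromosome 6, 9033862 to 9037775) is a member of the HAK family of potassium transporters. Its level was 13.2, 23.5 and 12.1 TPM in OE drought, 6.15, 3.7 and 8.88 TPM in WT drought, 11 and 10.4 TPM in OE normal, and 17.8, 17.9 and 19.6 TPM in WT normal. Its OE change of 0.51 (SE 0.32) was among the 3 nearest to the threshold from inside, while its WT change was -1.49 (SE 0.29).

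EXPA12 (LOC_Os03g06000, chromosome 3, 2998855 to 3000007) is an alpha-expansin, a protein that loosens the cell wall during growth. It stood at 9.64, 22.3 and 56.8 TPM in OE drought, 7.29, 4.77 and 9.99 TPM in WT drought, 15.4 and 16.4 TPM in OE normal, and 33.2, 30.6 and 31.4 TPM in WT normal. The OE drought libraries straddled the OE normal level, and the OE change was 0.52 (SE 0.55). All WT drought libraries lay below all WT normal libraries, with a change of -2.02 (SE 0.49).

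CHT9 (LOC_Os05g33140, chromosome 5, 19435358 to 19436734) is a chitinase, of a family that cleaves the chitin of fungal walls. It stood at 9.97, 15.8 and 0.415 TPM in OE drought, 0.878, 11 and 0.285 TPM in WT drought, 0.819 and 1.03 TPM in OE normal, and 3.99, 4.84 and 4.21 TPM in WT normal. Both drought groups held high and low libraries and overlapped the normal groups. The change of CHT9 was 1.73 in OE (SE 1.06) and -0.8 in WT (SE 0.95). Pi21 (LOC_Os04g32850, chromosome 4, 19835131 to 19836892), a proline-rich protein whose loss slows rice blast, stood at 2.37, 4.46 and 0.803 TPM in OE drought and 0.0508, 0.318 and 0.209 TPM in WT drought. In normal conditions Pi21 held 0.859 and 0.489 TPM in OE and 0.818, 0.593 and 0.744 TPM in WT, levels at which log2(TPM + 1) understates ratios. The change of Pi21 was 0.95 in OE (SE 0.36) and -0.53 in WT (SE 0.32). With median-ratio scaling the WT change was -0.49 for CHT9 and -0.40 for Pi21, both short of the threshold.

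DOS (LOC_Os01g09620, chromosome 1, 4949047 to 4951126) encodes a nuclear zinc finger protein of the CCCH type that delays leaf senescence in rice. It stood at 56.7, 86.7 and 148 TPM in OE drought, 12.6, 19.5 and 136 TPM in WT drought, 55.5 and 55.5 TPM in OE normal, and 67.4, 67.0 and 70.2 TPM in WT normal. WT drought replicate 3 stood about as high as the highest OE drought library, and the other 2 WT drought libraries lay far below every WT normal library. The change of DOS was 0.69 in OE (SE 0.79) and -1.04 in WT (SE 0.71). SPL14 (LOC_Os08g39890, chromosome 8, 25274449 to 25278696), a transcription factor that sets shoot branching and panicle form, stood at 2.05, 7.62 and 6.22 TPM in OE drought and 1.33, 0.839 and 2.71 TPM in WT drought. SPL14 held 3.34 and 2.48 TPM in OE normal and 4.07, 2.74 and 4.29 TPM in WT normal, and OE drought overlapped OE normal through replicate 1. The change of SPL14 was 0.56 in OE (SE 0.43) and -0.89 in WT (SE 0.38).

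**Figure D2:**
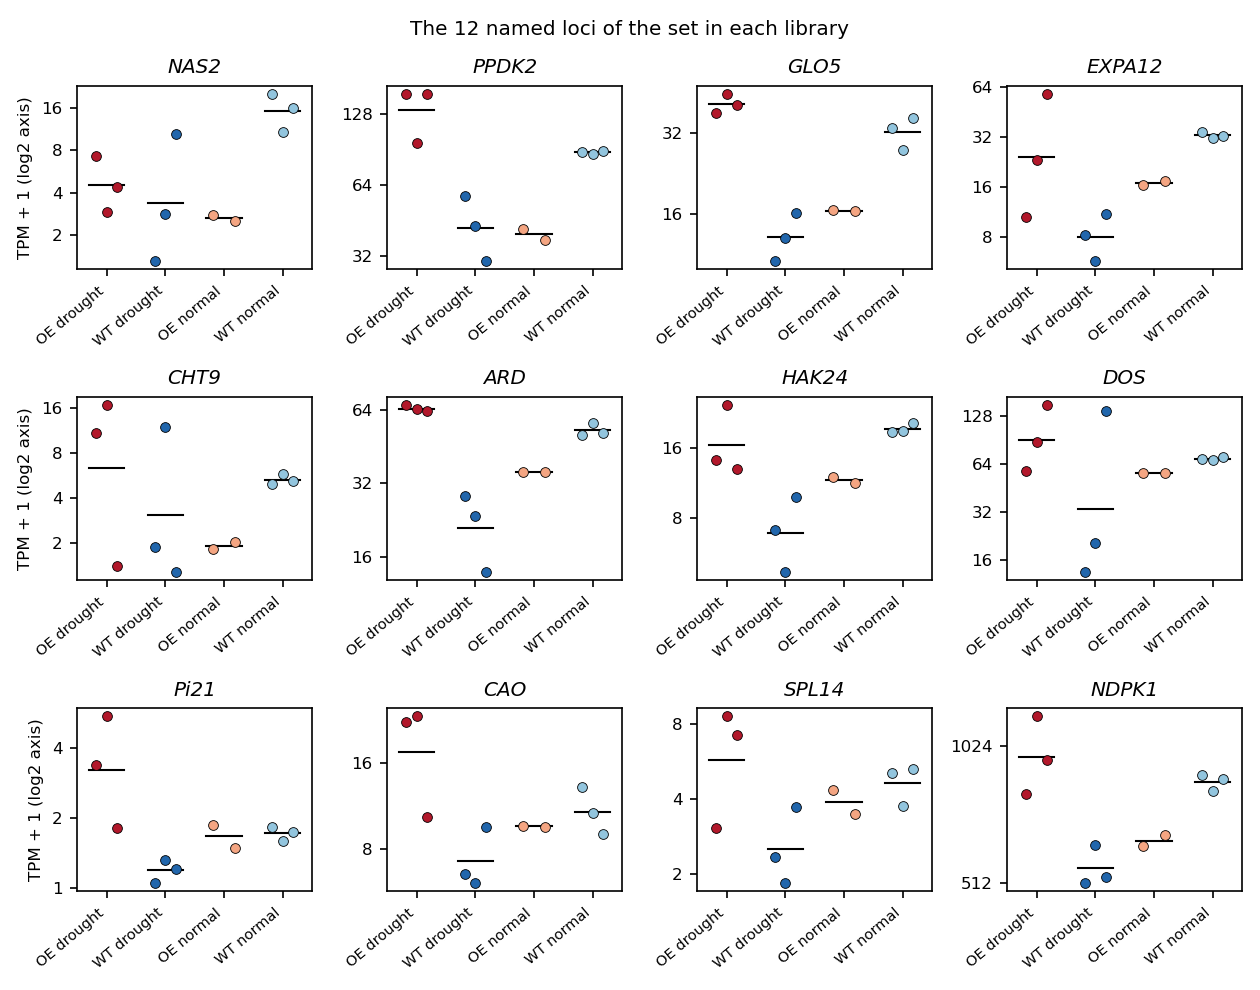
TPM + 1 on a log2 axis for the 12 loci of the set with an accepted gene name, with 1 point per library in the groups OE drought, WT drought, OE normal and WT normal and a bar at the group mean of log2(TPM + 1). In PPDK2, GLO5, ARD, NDPK1, HAK24 and NAS2 the drought libraries of each genotype do not overlap its normal libraries, in HAK24 and NAS2 by a small margin. DOS, CHT9 and NAS2 have WT drought libraries at or near the OE drought level.

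The other 157 loci have no accepted name and are given by the identifiers of the deposited tables, with no role. Those with the widest gap between the 2 drought changes were taken among loci with a mean of at least 10 TPM in their highest group and no overlap of libraries in either drought comparison, 59 in all. They followed 2 courses. In some, the level in OE drought was far above all other groups. LOC_Os07g30960 (chromosome 7, 18331755 to 18333958) stood at 120, 171 and 146 TPM in OE drought, 3.17, 5.35 and 2.33 TPM in WT drought, 5.44 and 5.81 TPM in OE normal, and 7.25, 6.01 and 8.35 TPM in WT normal. Its change was 4.45 in OE (SE 0.26) and -0.87 in WT (SE 0.23). LOC_Os11g30500 (chromosome 11, 17729025 to 17730347) had the same shape, at 266, 269 and 220.6 TPM in OE drought, 35.9, 25.6 and 14.6 TPM in WT drought, 22.0 and 28.9 TPM in OE normal, and 39.9, 47.5 and 41.5 TPM in WT normal. LOC_Os04g49980 held 17.4, 20.7 and 23.1 TPM in OE drought, while no library of the other 3 groups passed 2.58 TPM.

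In others, a low level of WT drought or of OE normal, or a high level of WT normal, made the gap. LOC_Os07g41340 (chromosome 7, 24765679 to 24766714) was nearly lost in WT drought, at 93.4, 43.4 and 63.9 TPM in OE drought and 1.59, 1.66 and 0.624 TPM in WT drought. In normal conditions it held 33.5 and 35.5 TPM in OE and 57.7, 34.2 and 58.7 TPM in WT. Its WT change of -4.48 (SE 0.31) was the lowest of the 169 loci. LOC_Os10g11889 (chromosome 10, 6597053 to 6599560) was high only in watered WT roots, at 7.89, 11.2 and 2.63 TPM in OE drought, 1.39, 1.74 and 1.97 TPM in WT drought, 0.814 and 2.12 TPM in OE normal, and 35.4, 28.5 and 29.9 TPM in WT normal. LOC_Os03g19270 was also low in WT drought and OE normal, but its OE drought libraries reached the levels of watered WT roots. It stood at 22.4, 29.9 and 60.7 TPM in OE drought, 6.95, 10.3 and 8.31 TPM in WT drought, 5.21 and 5.55 TPM in OE normal, and 32.8, 20.5 and 37.6 TPM in WT normal. The widest gap of all belonged to LOC_Os10g31330, outside that selection and chosen after its values were seen, at 464, 525 and 277 TPM in OE drought and 1.29, 1.05 and 163 TPM in WT drought. Its normal libraries held 32.1 and 31.3 TPM in OE and 59.6, 73.6 and 56.8 TPM in WT, so WT drought replicate 3 alone went against the direction of its group. The gap of 6.44 had an SE of 2.01.

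The remaining loci of that selection had gaps between 3.7 and 5.08. LOC_Os06g31280 stood at 7.69, 228 and 108 TPM in OE drought, a wide spread, against 0.231, 1.58 and 1.36 TPM in WT drought. LOC_Os11g10590, only 267 bases long, likewise stood at 98.1, 946 and 290 TPM in OE drought and 27.1, 20.0 and 28.5 TPM in WT drought. LOC_Os06g44190, 331 bases long, stood at 217, 161 and 83.0 TPM in OE drought and 4.96, 4.36 and 9.13 TPM in WT drought. LOC_Os10g30150 and LOC_Os09g27330 had gaps of 4.74 and 3.7. With median-ratio scaling the WT change fell short of the threshold in LOC_Os11g30500 (-0.44), LOC_Os04g49980 (-0.47) and LOC_Os09g27330 (-0.35).

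The 6 loci with the highest mean level over the 11 libraries were NDPK1 and 5 without a name. LOC_Os07g25050 (chromosome 7, 14292224 to 14292742) was the most abundant in every group, at 1535, 947 and 1399 TPM in OE drought, 587, 1280 and 1505 TPM in WT drought, 712 and 699.5 TPM in OE normal, and 2018, 2105 and 1928 TPM in WT normal. Its drought libraries overlapped between genotypes, and the difference of OE from WT was 0.28 after drought and -1.51 in normal conditions. LOC_Os07g24830 (chromosome 7, 14118021 to 14118923) stood at 300, 203 and 367 TPM in OE drought, 69.3, 103 and 96.8 TPM in WT drought, 166 and 152 TPM in OE normal, and 368, 359 and 355 TPM in WT normal. LOC_Os04g50970 was the most even of these, at 626, 703 and 774 TPM in OE drought, 166, 176 and 192 TPM in WT drought, 233 and 244 TPM in OE normal, and 328, 333 and 337 TPM in WT normal. LOC_Os06g32020 was uneven, at 89.4, 1498 and 1146 TPM in OE drought and 116, 73.6 and 51.9 TPM in WT drought, with OE drought replicate 1 among the WT drought libraries. Its normal libraries held 348 and 402 TPM in OE and 400, 375 and 391 TPM in WT, so OE drought replicate 1 lay far below watered OE roots. The change was 0.52 in OE (SE 0.95) and -2.33 in WT (SE 0.85). LOC_Os03g55850 stood at 360.2, 502 and 323 TPM in OE drought and 134, 154 and 147 TPM in WT drought, and its WT change was -0.13 with median-ratio scaling.

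The highest group mean was at least 100 TPM in 28 loci and at least 10 TPM in 109, and 34 loci stayed under 5 TPM in every group. In 9 loci at least 1 library was listed at 0, and in 3 a whole group was, where no fold is given. The median group mean was 17.7 TPM in OE drought, 4.05 in WT drought, 6.37 in OE normal and 8.06 in WT normal, against 8.45, 10.4, 13 and 12.5 TPM over all tested loci in the same groups. The median span of the 169 loci was 1632 bases, against 3163 over all tested loci, and this difference was not tested.

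**Figure D3:**
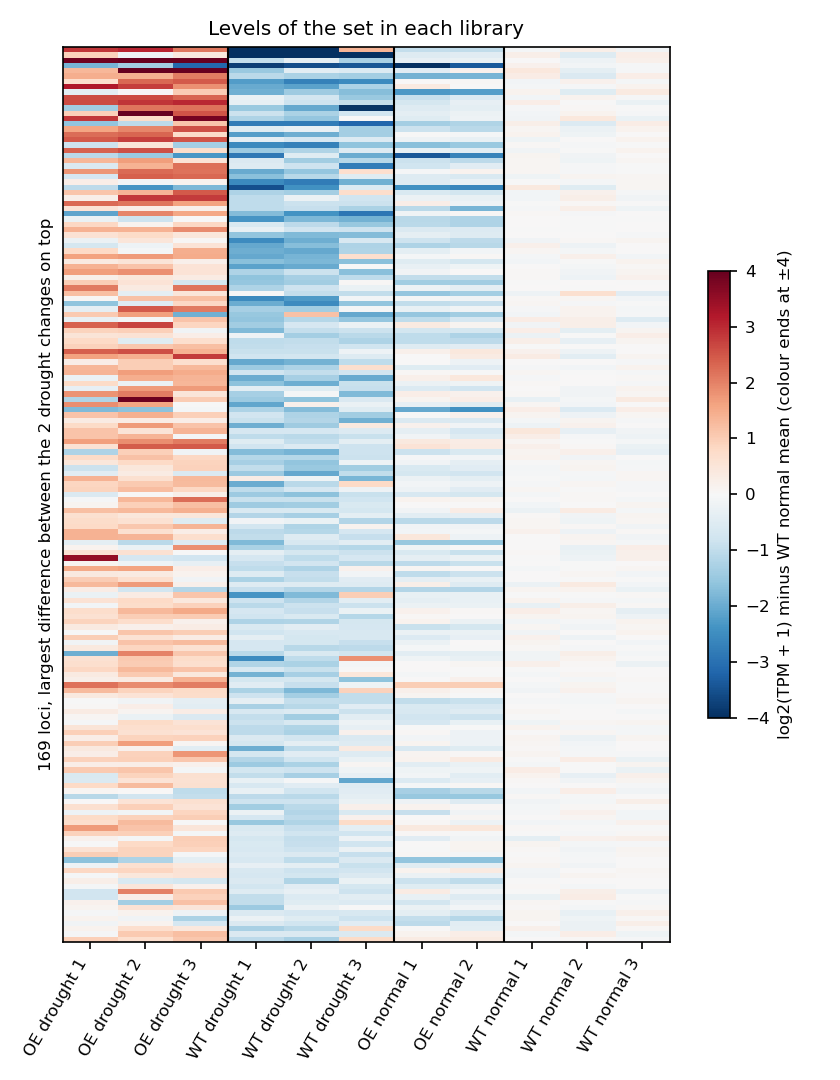
Rows are the 169 loci, ordered by the gap between the 2 drought changes with the widest on top, and columns are the 11 libraries; colour is log2(TPM + 1) minus the WT normal mean of the locus. OE drought columns are mostly red, WT drought columns mostly blue, with replicate 3 paler, and OE normal columns mostly pale blue.

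The median drought change of the 169 loci was 0.96 in OE and -0.85 in WT, against -0.56 and -0.35 over all tested loci. In OE it ranged over 0.51 to 4.45, and in WT over -4.48 to -0.51. Both changes were at least 1 in size in 30 loci. The rise in OE was the larger change in 93 loci and the fall in WT in 76. Among the 5028 tested loci at least 0.5 higher in OE drought, the 172 that met both thresholds made up 3.42%. Among the 10247 loci at least 0.5 lower in WT drought they made up 1.68%, and the median OE change of those 10247 loci was -1.24.

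Counts of calls describe the strength of a choice already made on these values, so nothing is read from their excess over the background. At an adjusted p under 0.05 (limma), 102 of the 169 loci were called higher in OE drought than in OE normal, where 19.4% of all tested loci were. In WT drought against WT normal, 102 were called lower, where 44.0% of all loci were. With median-ratio scaling these counts were 144 in OE (31.9% of all loci) and 48 in WT (27.8% of all loci). Both calls held for 71 loci, against 0.371% of all loci. The difference between the 2 drought changes was called higher in OE for 118, against 4.60% of all loci. Without OE normal replicate 1 or 2 it was called for 58 (1.88% of all loci) or 60 (1.82%), and the rise in OE for 65 (15.5%) or 62 (14.9%). Libraries did not overlap in OE for 134 loci (24.4% of all loci) and in WT for 126 (49.9% of all loci). In both at once they did not overlap for 95 loci (0.924% of all loci).

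The genotypes were then set side by side within each condition, with the same libraries that chose the loci. After drought, OE was above WT by a median of 1.63, 140 loci were called, all of them higher in OE. Of all tested loci 38.6% were called, 12.1% higher and 26.5% lower in OE, and with median-ratio scaling 18.4% higher and 17.8% lower. With group weights 117 of the 169 were called after drought (20.8% of all loci), and in a fit on the 2 drought groups alone 99 were (14.6%). In 129 loci every OE drought library lay above every WT drought library, as in 12.4% of all loci. The gap ran from -0.34 to 5.47. In normal conditions, OE was below WT by a median of 0.31 on the log2 scale. Of the 169 loci, 11 were called lower in OE (0.519% of all loci) and 1 higher (1.24% of all loci), 12 in all (1.76% of all loci). This fit shares 1 estimate of the spread over all 4 groups. The count was 68 with group weights (28.1% of all loci) and 73 in a fit on the 2 normal groups alone (30.0%). It was 23 without WT drought replicate 3 (5.46%), 2 and 1 without OE normal replicates 1 and 2 (0.376% and 0.291%), and 2, 5 and 2 without WT normal replicates 1, 2 and 3 (0.544%, 0.789% and 0.536%). The OE normal mean was the lower in 130 loci, against 45.0% of all tested loci, and in 98 both OE normal libraries lay below every WT normal library, as in 24.4% of all loci. In 10 both lay above, as in 32.6% of all loci. A low OE normal level and a high WT normal level each help a locus to meet the rule.

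By their watered levels the loci fell into 3 classes. In 108, OE normal lay within 0.5 of WT normal, as in SPL14 and CAO. In 60, it lay at least 0.5 below, as in PPDK2, GLO5, ARD and NAS2, against 5.26% of all tested loci. In 1 locus it lay at least 0.5 above. Set against watered WT roots, OE drought roots stood at least 0.5 higher in 106 loci, within 0.5 in 53 and at least 0.5 lower in 10. The median of that difference was 0.69. Apart from the share of 5.26%, these positions were not counted over all tested loci, so the counts describe the set alone.

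The drought libraries were far less even than the normal ones. The median SD of log2(TPM + 1) over the 169 loci was 0.493 in OE drought, 0.40 in WT drought, 0.097 in OE normal and 0.124 in WT normal, against 0.253, 0.27, 0.075 and 0.074 over all tested loci. The median change of the set was 0.92, 1.13 and 0.99 in OE drought replicates 1, 2 and 3, and -1.0, -1.03 and -0.67 in WT drought replicates 1, 2 and 3. In OE drought, replicate 1 lay below every OE normal library in 19 loci, replicate 2 in 4 and replicate 3 in 5. These positions were not counted over all tested loci.

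Among the WT drought libraries, replicate 3 differed from the others. It was above every WT normal library in 21 loci, where replicate 1 was in 1 and replicate 2 in 2. In 35 of the 43 loci whose WT libraries overlapped, it was the only drought library not below the normal ones. Neither position was counted over all tested loci, so these counts describe the set alone. Without replicate 3, 161 of the 169 loci showed no overlap in WT, as did 58.5% of all tested loci. It was the highest of the 3 WT drought libraries in 56.2% of the set and in 43.4% of all tested loci. Without this library, 270 loci met both thresholds, 158 of them in the set of 169, and the median gap between the 2 drought changes of the 169 loci was 2.14, against 1.89 with it.

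**Figure D4:**
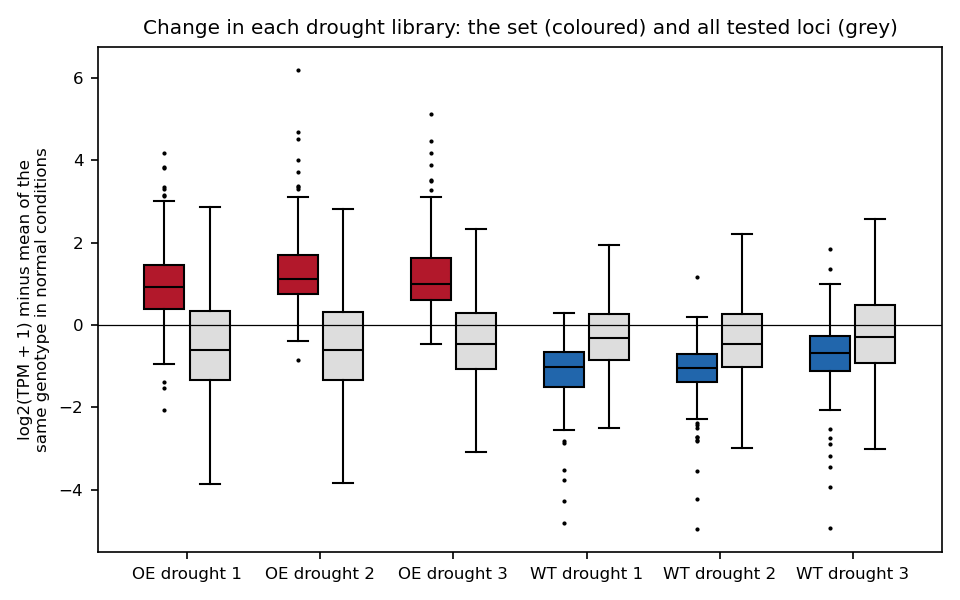
Boxes show, for each drought library, log2(TPM + 1) minus the mean of the same genotype in normal conditions, for the 169 loci (coloured) and for all tested loci (grey); lines are medians, boxes quartiles and whiskers reach 1.5 times the box height, with points beyond drawn for the set only. The medians of the set are 0.92, 1.13 and 0.99 in OE drought and -1.0, -1.03 and -0.67 in WT drought.

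Positions on the chromosomes were not used by the rule. Coordinates are those of the deposited tables, whose genome build is not given in the sources used here. The loci lay on all 12 chromosomes, with 89 on the plus and 80 on the minus strand. Chromosome 10 carried 18 of them, 10.7% of the set, while it held 5.30% of all tested loci, and chromosome 9 carried 5, 2.96% of the set, with 5.49% of tested loci. Neighbouring loci are not independent, and no test of position was made.

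In 6 places members lay within 5 listed loci of each other, and these runs held 15 members. The longest, on chromosome 1 between 3297850 and 3315609, held LOC_Os01g06990, LOC_Os01g07020, LOC_Os01g07030 and LOC_Os01g07040, all on the minus strand. LOC_Os01g07020 stood at 2.71, 11.1 and 10.3 TPM in OE drought, 0.114, 0.737 and 0.0914 TPM in WT drought, 4.04 and 4.88 TPM in OE normal, and 3.2, 3.42 and 3.54 TPM in WT normal. LOC_Os01g06990 stood at 1.68, 8.53 and 8.71 TPM in OE drought and 0.0509, 0.220 and 0 TPM in WT drought. All 4 were low in every WT drought library, and in each OE drought replicate 1 was the lowest of its group. With median-ratio scaling the WT change of LOC_Os01g07030 was -0.44, short of the threshold.

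The second run, on chromosome 10 between 16599488 and 16626573, held LOC_Os10g31670, LOC_Os10g31710 and LOC_Os10g31720. LOC_Os10g31670 stood at 59.96, 187 and 211 TPM in OE drought, 7.26, 4.88 and 5.73 TPM in WT drought, 38.1 and 39.3 TPM in OE normal, and 34.7, 42.8 and 35.9 TPM in WT normal. LOC_Os10g31710 stood at 198, 99.0 and 295 TPM in OE drought and 37.1, 29.6 and 62.5 TPM in WT drought, and LOC_Os10g31720 at 199.9, 109 and 313 TPM in OE drought and 29.2, 27.3 and 49.9 TPM in WT drought. OE normal libraries held 99.3 and 104 TPM for LOC_Os10g31710 and 87.3 and 105 TPM for LOC_Os10g31720. OE drought replicate 2 lay just below both in LOC_Os10g31710 and just above both in LOC_Os10g31720. In both loci every WT drought library lay below every WT normal library. The ratio of these 2 loci stayed between 0.911 and 1.27 in the 11 libraries. How reads of similar loci were shared is not known, so their values may not be separate measurements.

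The other runs were pairs. LOC_Os07g30960, described above, ends just before NDPK1, but OE drought stood far above OE normal in the first and little above it in the second. LOC_Os07g05550 and LOC_Os07g05560 lie end to end and moved alike, with 8.93, 11.3 and 9.77 TPM in OE drought and 1.23, 0.979 and 1.28 TPM in WT drought for LOC_Os07g05550, and 6.46, 8.78 and 6.80 TPM in OE drought and 0.991, 0.968 and 1.4 TPM in WT drought for LOC_Os07g05560. GLO5 lay near LOC_Os07g05840, which stood at 4.25, 3.61 and 11 TPM in OE drought, while no library of the other groups passed 1.17 TPM. LOC_Os06g04990 stood at 16.5, 24.2 and 111 TPM in OE drought and 6.46, 6.502 and 4.72 TPM in WT drought. Its OE normal libraries held 19.1 and 21.6 TPM, so OE drought replicate 1 lay below both and replicate 2 little above. The OE change was 0.78 (SE 0.63). Its neighbour LOC_Os06g05010 had the same mean log2 level in both drought groups, with a genotype difference of 0.00.

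Near the thresholds the choice was fine. The loci closest to the OE threshold inside the set changed by 0.507 in OE, and the closest outside changed by 0.492, 0.484 and 0.483. In WT the closest inside changed by -0.510, -0.511 and -0.513, and the closest outside by -0.499, -0.498 and -0.497. When each of the 11 libraries was left out in turn, 79 loci met the rule every time, and among the 12 named genes these were PPDK2, GLO5 and ARD.

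**Figure D5:**
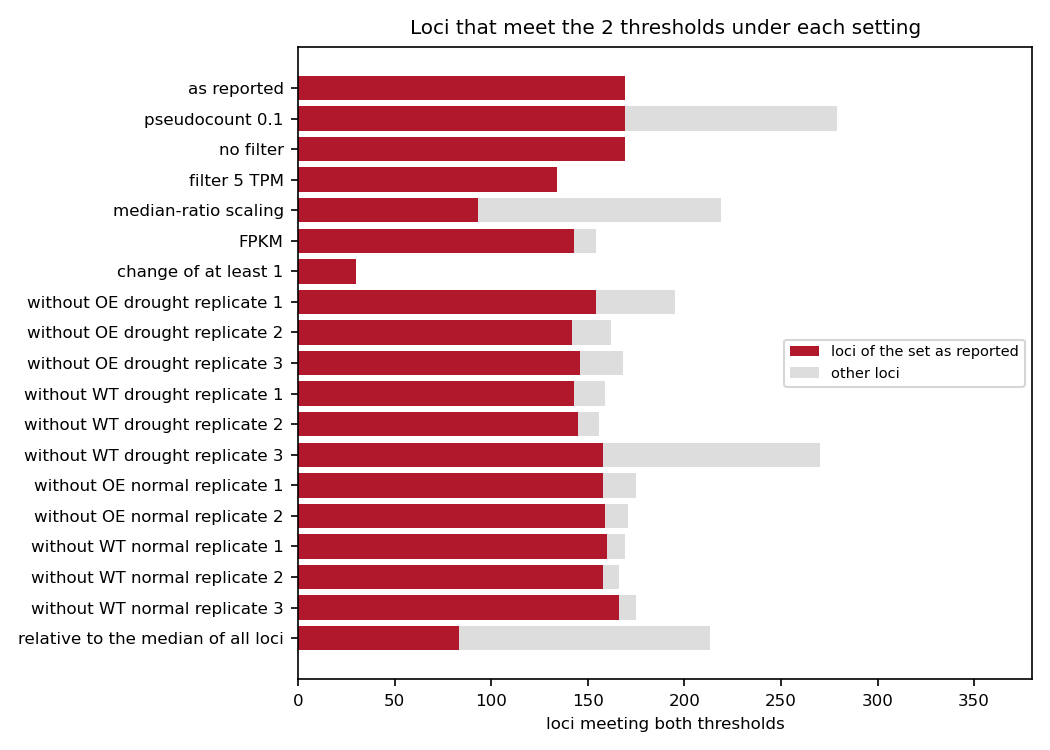
Bars count the loci that meet both thresholds under each setting, starting at 0, with loci of the reported 169 in red and other loci in grey. Median-ratio scaling keeps 93 of the 169 loci and changes relative to the median of all loci keep 83, while leaving out WT drought replicate 3 gives 270 loci.

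Most genes of the families named above did not share the pattern. Of all tested loci, 19.4% were called higher and 51.3% lower in OE drought against OE normal, and 20.3% higher and 44.0% lower in WT drought against WT normal (limma). With median-ratio scaling these shares were 31.9% and 31.1% in OE and 28.7% and 27.8% in WT. Of 14 tested genes for nicotianamine and iron with an accepted name, 2 were in the set (NAS2 and ARD). YSL2 (LOC_Os02g43370), a transporter of iron bound to nicotianamine, met both thresholds too and was left out by the rule, with changes of 1.25 in OE and -2.33 in WT. In that list 6 genes were called higher and 4 lower in OE drought against OE normal, and 1 was called higher and 8 lower in WT drought against WT normal (limma). With median-ratio scaling 6 were called higher and 3 lower in OE, and 2 higher and 7 lower in WT. NRAMP1 (LOC_Os07g15460), a metal transporter, was lower in both genotypes, by -0.90 in OE (limma adjusted p = 0.00142) and -2.7 in WT (limma adjusted p = 1.06e-06). NAAT1 (LOC_Os02g20360), an aminotransferase of phytosiderophore synthesis, was higher in OE by 2.6 (limma adjusted p = 3.71e-05), with a WT change of 0.38 (limma adjusted p = 0.225).

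Of 19 tested expansins with an accepted name, EXPA12 alone was in the set. LOC_Os02g16780, written for this list without an accepted name, was in the set too, with changes of 0.63 in OE and -1.15 in WT. Of the 19, 4 were called higher and 6 lower in OE, and 1 higher and 9 lower in WT. With median-ratio scaling 5 expansins were called higher and 3 lower in OE, and 3 higher and 6 lower in WT. Of 13 tested HAK transporters, HAK24 alone was, with 3 called higher and 6 lower in OE and 3 higher and 5 lower in WT. After scaling it was 6 higher and 4 lower in OE and 5 higher and 4 lower in WT. HAK7 (LOC_Os07g47350) was higher in both, by 1.38 in OE (limma adjusted p = 6.67e-06) and 1.34 in WT (limma adjusted p = 4.57e-06). Of 5 tested chitinases CHT9 alone was in the set, and of 5 tested SPL factors SPL14 alone. For chitinases 2 were called higher and 2 lower in OE and 3 higher in WT (after scaling 2 higher and 0 lower in OE and 4 higher in WT), and for SPL factors 2 were called lower in OE and 1 lower in WT. After scaling 1 SPL factor was called lower in OE and 1 in WT.

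Other lists had no gene in the set. All 7 tested LEA and dehydrin genes, which protect drying cells, were called higher in OE and 5 were in WT, where 19.4% and 20.3% of all tested loci were. Of 9 tested clade A phosphatases, which restrain abscisic acid signalling, 8 were called higher in OE and 5 in WT. With median-ratio scaling 9 phosphatases were called higher in OE and 6 in WT. Of 10 tested low-oxygen genes, 4 were called higher and 5 lower in OE, and 1 higher and 8 lower in WT. With median-ratio scaling it was 4 higher and 5 lower in OE, and 1 higher and 5 lower in WT. Among the low-oxygen genes, ADH2 (LOC_Os11g10510), an alcohol dehydrogenase, met both thresholds and was left out by the rule, with changes of 1.17 in OE and -1.04 in WT.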

How the data were processed

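RNA sequencing of 11 root libraries was analysed, and 18 ATAC-seq samples of the series were not used here. Tools named in the submitters' processing notes include StringTie 1.3.6, SAMtools 1.9, STAR 1.5.2, FastQC 0.11.8 and fastp, with no role given. No genome build, annotation or strandedness is given in the sources used here. TPM values deposited by the authors, for 55986 loci per library, sum to 1000000 and were the measure used. FPKM values deposited by the authors served as an alternative. Coverage (signal) deposited by the authors entered as a ratio to FPKM, from which the implied depth follows. No read counts were used, so no intervals from counting are given, and an exact 0 can be a failed estimate.

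The 23699 loci that reached 1 TPM in 2 or more libraries were fitted on log2(TPM + 1) with limma (version 3.58.1, R 4.3.3): group means, trended moderation with 2.92 prior and 7 residual degrees of freedom, two-sided tests, and Benjamini-Hochberg adjustment over all loci at 0.05. The contrasts were drought against normal in each genotype, their difference, and OE against WT in each condition. How many of the calls in these libraries are false, and how many real changes were missed, was not tested. Joins and plots used pandas 2.3.3, numpy 2.4.6 and matplotlib 3.10.9 under Python 3.11.15.

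The members and the gene lists were chosen with earlier results of these data known, and every contrast here shares libraries with the rule, so member values are descriptions. Loci were written from knowledge of the families. A name was kept when the reference table (assembly ASM3414082v1) placed that symbol on the same chromosome, no more than 5 Mb away and at 0.8 to 1.25 times the length, which held for 110 of 138. Named loci are those with an accepted name, the 12 widest gaps without overlap, the 6 most abundant, and runs of neighbours. The loci nearest the thresholds are given by their changes alone. Alternatives were another pseudocount, filters, median-ratio scaling, FPKM, a replicate block, group weights, fits on 2 groups alone, and leaving out each library. Subtracting the median change of all loci was added after seeing the data.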

Additional observations from a re-analysis of the deposited data

Results flagged for a closer look

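The drought changes of OE and WT differ at each of the 169 loci by the way the loci were chosen, so the values here mark size and are no independent sign of a difference. The difference between the 2 drought changes was called for 118 of the 169 loci (limma), against 4.60% of all tested loci called in that direction. Among the named genes with that call it was 2.8 in PPDK2, 2.63 in GLO5, 2.54 in EXPA12, 2.2 in ARD, 2.0 in HAK24 and 1.25 in NDPK1 on the log2 scale. Among the widest gaps it was 5.34 in LOC_Os07g41340, 5.32 in LOC_Os07g30960, 5.2 in LOC_Os10g11889, 5.08 in LOC_Os06g31280, 4.74 in LOC_Os10g30150 and 4.25 in LOC_Os10g31670. It was 4.21 in LOC_Os06g44190, 4.16 in LOC_Os03g19270, 4.09 in LOC_Os11g30500, 4.04 in LOC_Os04g49980, 3.85 in LOC_Os11g10590 and 3.7 in LOC_Os09g27330. Among the abundant loci it was 2.84 in LOC_Os07g24830, 2.44 in LOC_Os04g50970, 1.79 in LOC_Os07g25050 and 1.44 in LOC_Os03g55850. In the runs of neighbours it was 2.09 in LOC_Os01g06990, 2.32 in LOC_Os01g07020, 2.3 in LOC_Os10g31710, 2.7 in LOC_Os10g31720 and 3.71 in LOC_Os06g04990. It was also 2.34 in LOC_Os07g05550, 2.05 in LOC_Os07g05560 and 2.44 in LOC_Os07g05840. Of these loci, 18 kept the call in every alternative setting. Of up to 18 settings it was lost in 13 for LOC_Os01g06990, 11 for LOC_Os06g31280, 10 for EXPA12, 8 for LOC_Os07g25050, 7 for LOC_Os01g07020, 5 for LOC_Os11g10590 and 3 for LOC_Os10g31710. It was lost in 2 for HAK24 and LOC_Os06g04990 and in 1 for NDPK1, LOC_Os10g31720 and LOC_Os07g05840.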

How the results depend on the processing

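With a pseudocount of 0.1 the rule was met by 279 loci, among them all 169, and the median gap between the 2 drought changes was 2.62, with medians of 1.18 in OE and -1.15 in WT. With median-ratio scaling 219 loci met it, 93 of the 169 among them, the medians were 2.16 for the gap, 1.50 in OE and -0.54 in WT, and 48 of the 169 were called lower in WT drought (27.8% of all loci), against 102 (44.0%). Set against the median of all loci, 213 loci met the rule, with 83 of the 169. Both changes of at least 1 were met by 30 loci, and loci that reached 5 TPM in 2 or more libraries had a median gap of 2.19. With FPKM 154 loci met the rule, 143 of them among the 169.

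Leaving out each library in turn gave 156 to 270 loci that met the rule, medians of 1.83 to 2.14 for the gap, 0.92 to 1.09 in OE and -1.0 to -0.77 in WT. Calls among the 169 ranged from 58 to 149 for the difference (1.82% to 10.8% of all loci), 62 to 128 in OE (14.9% to 22.2%), 76 to 123 in WT (37.7% to 46.8%) and 1 to 23 between the genotypes in normal conditions (0.291% to 5.46%). Without OE normal replicates 1 and 2 the lone OE normal library is assumed to vary like the other groups. OE against WT in normal conditions was called for 68 loci with group weights (28.1% of all loci) and 73 in a fit on those 2 groups alone (30.0%), against 12 (1.76%). After drought it was called for 117 with group weights (20.8%) and 99 in a fit on the 2 drought groups alone (14.6%), against 140 (38.6%).

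Same-numbered libraries did not deviate together (correlations of -0.132 to 0.059), so the numbers were not taken to pair the samples. With the replicate block the difference was called for 100 loci (3.51% of all loci) and OE against WT in normal conditions for 7 (0.911%). Of 716 values of 40 named loci under these alternatives, 64 lost the call of the difference and 27 gained it. Read depth is known only as implied coverage, and 34 of the 169 loci stayed under 5 TPM in every group.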
